A study of Mus musculus with 1528 samples.

Results

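The Ms4a4a-Hpgd-Ednrb-high cells were 144 of 721 kept single macrophages treated with IL4+IL13. They were chosen by their measured levels of 6 genes, Ms4a4a, Hpgd, Ednrb, Scn3a, Klhl33 and Prrg1. The score was the mean of log2(CPM + 1) of these genes, where CPM is a gene's fragments scaled to an equal total of gene fragments, and the members were the top 20% of cells. The other 577 kept IL4/IL13 cells were the comparison, and the values were read within each plate.

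The cells were bone marrow–derived macrophages (BMDMs), primary macrophages grown from mouse marrow with CSF1, from 2 wild-type male C57BL/6J mice with no transgene or deleted gene. They received IL4 and IL13, or IL4, IL13 and TNF, for 24 h at 10 ng/ml of each cytokine, and live single cells were sorted into wells and sequenced with Smart-seq2, a full-length cDNA method without molecular identifiers. Plates 2 and 3 held cells of mouse 1 and plates 4 and 5 held cells of mouse 2, and on each plate IL4/IL13 cells took rows A to H and IL4/IL13/TNF cells rows I to P, so that the treatment and the part of the plate cannot be told apart. Of 1524 wells with a known mouse and treatment, 1439 had at least 200000 gene fragments, at least 5000 detected genes and at most 10% mitochondrial fragments, and 721 of these were IL4/IL13 cells and 718 were IL4/IL13/TNF cells.

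IL4 and IL13 act through the IL4 receptor alpha chain and STAT6 and turn on the genes of alternative, or M2, macrophage activation, such as the lectins Mrc1 and Clec10a. Macrophages grown in the same dish still differ: some carry transcripts typical of tissue-resident macrophages, such as complement C1q, the TAM receptor ligand Gas6 and the transcription factor Maf, while others carry transcripts of lipid handling and fusion such as Gpnmb, Lpl and Dcstamp. The 6 score genes have separate roles. Ms4a4a encodes a membrane protein of the Ms4a family found on macrophages, Hpgd the dehydrogenase that inactivates prostaglandins, Ednrb the type B endothelin receptor, Scn3a the alpha subunit of a voltage-gated sodium channel, Prrg1 a membrane protein with a vitamin K–dependent Gla domain, and Klhl33 a Kelch-like protein.

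Beyond the 6 genes, DESeq2 called some genes of the Ms4a, resident-type and C1q macrophage lists higher in members and 0 lower. Of the Gpnmb and lipid list, it called 8 lower and 0 higher. Over all genes, it called 0.865% higher and 0.670% lower. The mannose receptor Mrc1, Gas6, Clec10a, Maf and Ms4a6b were higher in members on 4 of 4 plates, with log2 fold changes of 0.79, 0.81, 1.06, 0.91 and 1.50. Of all genes, 5.45% were higher on 4 of 4 plates. Some resident-type and C1q genes went the other way, among them Apoe, Cd163, Folr2 and Trem2, at -0.44, -0.30, -0.21 and -0.14. The macrophage elastase Mmp12 was lower on 4 of 4 plates, with a log2 fold change of -2.93, and the 12 genes of the Gpnmb and lipid list were lower on 4 of 4 plates, with a median of -0.74, beside 11% of all genes lower on 4 of 4 plates. With 2 mice, the edgeR test gave 0 of 20878 genes past an adjusted p of 0.05, and DESeq2 on the same sums gave 142 higher and 110 lower genes.

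The score ran from 0 to 7.95 without a gap, so the members are the upper range of a continuous measure. Its median over the kept IL4/IL13 cells was 1.55, and 69 cells, or 9.57%, had a score of 0 because no fragment of any score gene was counted. The lowest member scored 2.943 and the highest other cell 2.940, and 33 cells lay within 0.1 of that limit. Of the members, 4 had fragments of 2 score genes, 51 of 3, 53 of 4, 32 of 5 and 4 of 6, whereas 177 of the other cells had 2, 128 had 3, 30 had 4 and 5 had 5. At a floor of 5 fragments, 3 or more score genes were found in 111 members (77.1%) and in 4 other cells (0.693%). These values describe how the rule worked and are no finding.

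**Figure D1:**
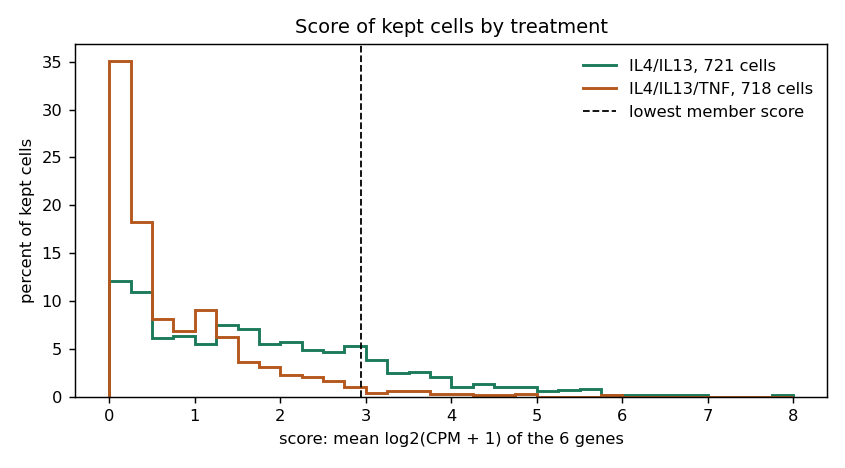
Percent of kept cells (y axis) by score, the mean log2(CPM + 1) of the 6 genes (x axis), for 721 IL4/IL13 cells (green) and 718 IL4/IL13/TNF cells (orange), with a dashed line at the lowest member score. Both curves fall without a gap across the line at 2.94, and the orange curve lies mostly near 0.

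Members came from every plate, with 23 on plate 2, 32 on plate 3, 56 on plate 4 and 33 on plate 5, which were 12.7%, 17.7%, 30.3% and 19% of the kept IL4/IL13 cells. Plate 4 gave the highest share and plate 2 the lowest. By well row the share ran from 14.8% in row D to 26.4% in row G. Depth was alike, with a median of 477658 gene fragments in members and 477845 in the other cells, 7716 and 7663 detected genes, and 3.71% and 3.31% mitochondrial fragments. On plate 4, members were shallower, with a median of 445339 fragments against 483096. A member well on plate 3 had 6122892 fragments, 28.5% of all member fragments of that plate, while the next deepest member had 861430. Named genes whose DESeq2 call or size of change rested on this well are given below with and without it.

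The cells carried macrophage transcripts. On each plate, Adgre1 (F4/80) was at 1117, 1192, 826 and 924 CPM in members of plates 2 to 5 and 829, 892, 656 and 717 in the other cells, and Csf1r, the CSF1 receptor, was at 1071, 954, 1531 and 1582 CPM in members of plates 2 to 5 and 799.7, 838, 1138 and 1359 in the other cells. Both were slightly higher in members on 4 of 4 plates. Of the 7 macrophage identity genes, 2 were higher and 2 lower on 4 of 4 plates, with log2 fold changes from -0.41 to 0.39. The 7 macrophage identity genes summed to 11642 to 17661 CPM in members and to 15633 to 18443 in the other cells. Markers of other cell types were at or near 0: the summed level of the 8 neutrophil genes was 0.0879 to 6.75 CPM in members, that of the 6 mast cell and basophil genes 0.363 to 3.45, that of the 7 fibroblast genes 0.352 to 2.18 and that of the 6 lymphoid genes 0 to 1.21. The 5 endothelial genes summed to 12.8 to 49.3 CPM in members and 11.2 to 17.5 in the other cells, most of it Kdr, whose log2 fold change was 0.96 with the deep well of plate 3 described above and -0.04 without it. The markers thus fit macrophages and name no other cell type.

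Each score gene was higher in members, as the rule requires, and the genes differed in how evenly they were so. Ms4a4a (chr19:11375523-11392790 in mm10, plus strand) was at 212, 213, 214 and 325 CPM in members of plates 2 to 5 and 67.7, 49.9, 47.6 and 55.6 in the other cells. Ednrb (chr14:103814625-103844402, minus strand) was at 207, 322, 279 and 98.7 CPM in members of plates 2 to 5 and 39, 65.9, 27.1 and 35.4 in the other cells. Member cells of plate 5 had the lowest Ednrb and the highest Ms4a4a of the 4 plates. Hpgd (chr8:56294585-56321043, plus strand) was at 26.2, 85.1, 121 and 209 CPM in members of plates 2 to 5 and 24.2, 14.7, 22.3 and 31.9 in the other cells. On plate 2 Hpgd was close to the other cells, and on the 3 remaining plates the values did not overlap.

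Scn3a (chr2:65457118-65567627, minus strand) was at 40.2, 56.4, 101 and 89 CPM in members of plates 2 to 5 and 3.34, 8.97, 6.87 and 17.3 in the other cells. Klhl33 (chr14:50888582-50897507, minus strand) was at 31.6, 18.5, 51.8 and 63.8 CPM in members of plates 2 to 5 and 5.47, 9.65, 12.5 and 15.4 in the other cells. Prrg1 (chrX:78449613-78583896, minus strand) was at 16.9, 25.5, 60.1 and 66.3 CPM in members of plates 2 to 5 and 3.53, 4.12, 7.63 and 15.5 in the other cells. For these genes the highest values in members were on the plates of mouse 2, and in Prrg1 and Scn3a the lowest member value was on plate 2. Fragments of Ms4a4a were found in 82.6% of members and 45.4% of other cells, and those of Prrg1, found least often in members, in 45.8% and 23.9%.

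**Figure D2:**
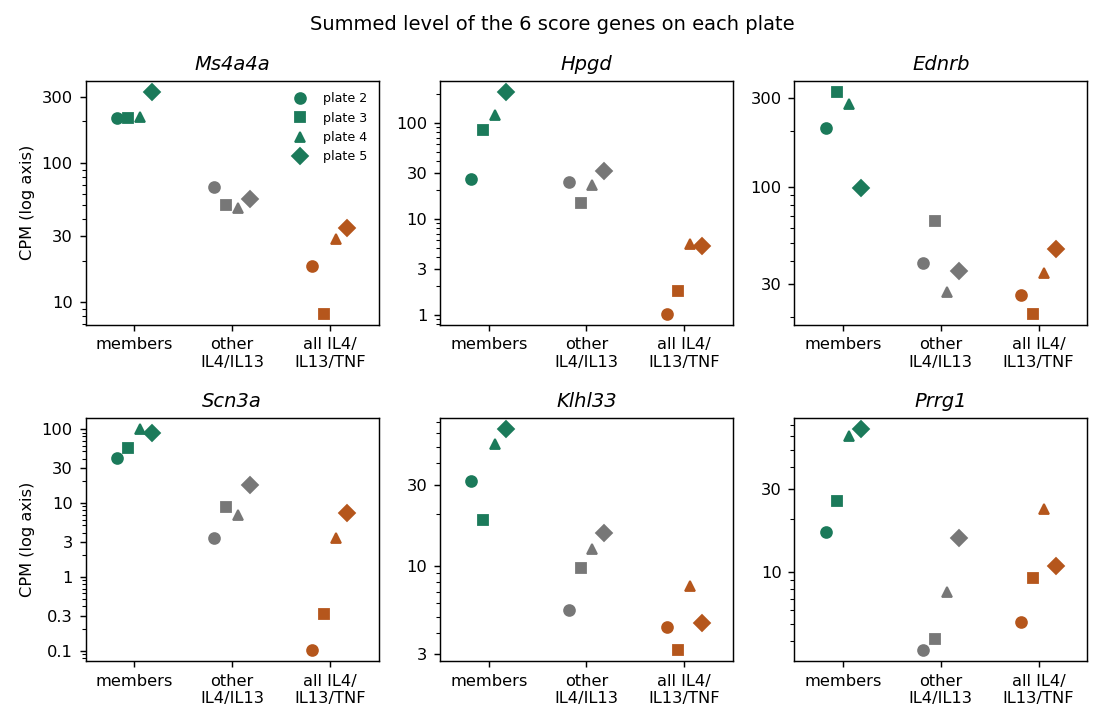
Summed CPM (log axis) of each score gene on plates 2 to 5 in members (green), other IL4/IL13 cells (grey) and all IL4/IL13/TNF cells (orange), with 1 point per plate. Members lie above the other cells on each plate, which the choice of members fixes, and Hpgd on plate 2 has the smallest gap, at 26.2 against 24.2.

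The 6 genes went together only loosely from cell to cell. Over the 721 cells, the Spearman correlation of the 15 pairs of genes ran from -0.02 to 0.19 with a median of 0.09, as a description over cells that share libraries and sparse counts. To read each gene on a ranking that did not use it, cells were ranked by the other 5 genes and the top 20% were set against the rest. The 6 genes were chosen with earlier results of these data known, so this reading is a description and no separate support. Ms4a4a was then at 175, 186, 166 and 199 CPM in the top cells and 74.3, 61, 69.95 and 80.7 in the rest, and was found in 63.9% of the top cells and 50.1% of the rest. Scn3a was at 21.9, 46.6, 58 and 66 CPM and 6.02, 12.5, 25 and 21.5, and was found in 44.4% of the top cells and 22.9% of the rest. For Ms4a4a and Scn3a the values of the top cells lay above those of the rest on each plate, with median log2 ratios of 1.27 and 1.69. Ednrb and Prrg1 were also higher in the top cells on 4 of 4 plates, with medians of 1.06 and 1.03. Hpgd and Klhl33 were higher on 3 of 4 plates, with medians of 0.32 and 0.54, so that on a ranking without them these genes were less even.

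The promoters of Ms4a4a and Ednrb are shown as windows that hold TGCTGA, the half-site bound by the protein of Maf, which was higher in members. Whether Maf acts on these genes was not tested. The windows hold the 250 bases before the start of the RefSeq transcript in GRCm38.p6 (the assembly of mm10), read 5′ to 3′ on the strand of the gene, with matches to TGCTGA on either strand in capitals. The Ednrb window lies inside the gene interval of the count table, whose annotation places the start farther upstream.
Ms4a4a, chr19:11375238-11375487, plus strand: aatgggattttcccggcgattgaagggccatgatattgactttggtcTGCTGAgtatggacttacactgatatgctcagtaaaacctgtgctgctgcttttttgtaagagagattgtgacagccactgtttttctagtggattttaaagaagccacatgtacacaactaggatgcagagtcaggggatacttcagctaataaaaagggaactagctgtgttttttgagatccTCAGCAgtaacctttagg
Ednrb, chr14:103843702-103843951, minus strand: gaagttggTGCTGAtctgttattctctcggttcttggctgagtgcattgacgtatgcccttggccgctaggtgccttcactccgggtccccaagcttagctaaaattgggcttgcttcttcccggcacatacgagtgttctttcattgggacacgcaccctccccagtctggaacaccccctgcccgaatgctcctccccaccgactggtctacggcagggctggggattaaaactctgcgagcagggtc
TGCTGA was found 2 times in the Ms4a4a window, with first bases 203 and 18 bases before the start, and 1 time in the Ednrb window, 242 bases before it. The motif was in no window of Hpgd or Klhl33 and in 1 of the 2 windows of Prrg1. Of 32851 windows of this length in the RefSeq promoter table, 16.1% held the motif. The STAT6 motif, TTC and GAA set 4 bases apart, which reads the same on both strands, was in no window of the 5 score genes that the table holds, and in 5.85% of all windows. The motifs were chosen after the expression values were seen, and a match is a description of the letters.

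DESeq2 calls among the lists around the score genes are to be read beside 0.865% of all genes called higher and 0.670% called lower. Of the prostaglandin and leukotriene list, 20 of 23 genes were tested, and 1 higher gene and 0 lower genes passed DESeq2, with a median log2 fold change of 0.15 beside -0.04 over all genes tested. That gene was Ptgs1, the cyclooxygenase that starts prostaglandin synthesis, at 146, 121, 160.1 and 271 CPM in members of plates 2 to 5 and 86.1, 79.6, 104 and 117 in the other cells. Ptgs1 was higher in members on 4 of 4 plates (edgeR log2 fold change 0.77 (SE 0.12), DESeq2 adjusted p = 0.00278). Ltc4s, the leukotriene C synthase, was at 23.2, 19, 34 and 28.6 CPM in members of plates 2 to 5 and 10.2, 6.01, 15.9 and 20.7 in the other cells, and its DESeq2 adjusted p was 0.0997. Of the endothelin list, 2 of 7 genes were tested and 0 passed DESeq2, Ece1, an endothelin-converting enzyme, with a log2 fold change of 0.55 and Edn1, at or below 1.03 CPM in members, with 1.53. The type A receptor Ednra stayed at or below 0.0879 CPM in members. Of the sodium channel list, 6 of 8 were tested and 0 passed, with log2 fold changes from -1.98 to 1.22 and a median of -0.46. Of the Gla protein and TAM receptor list, 10 of 12 were tested and 1 passed, Gas6, while the receptors Axl and Mertk had log2 fold changes of 0.02 and 0.03.

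The comparison of members with the other IL4/IL13 cells asks which genes outside the score go with it. Fragments were summed per mouse and class, giving 4 sums, and fitted with the mouse as a block. The edgeR test called 0 of 20878 genes (0%) higher and 0 lower at an adjusted p of 0.05, and 1536 genes (7.36%) had an unadjusted p under 0.05. On the same sums DESeq2 called 142 genes higher and 110 lower, 0.865% and 0.670% of the 16424 genes it tested, and limma on mean log values called 38 and 12 (0.182% and 0.0575%). Without any test, 1138 genes (5.45%) were higher in members on 4 of 4 plates and 2296 (11%) were lower. The 22 genes named for their size of change had an edgeR adjusted p of 0.667, and each DESeq2 call below is a call of that tool with n = 2 mice, which in simulated counts called more unchanged genes than edgeR. In summed counts, fewer cells with a transcript and less of it in each cell cannot be told apart. Without the deep well DESeq2 called 115 higher and 115 lower, and of the genes named below Fmnl2, Ahrr, Btd, Avl9, Parvg, Phldb1, Pf4, Cd40, Ccl3, Ccl4, Acod1, Ifit1 and Ifit2 were then not called, while Spp1, Cd36, C1qc, Csf1r and Ap2m1 were.

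Among genes that mark resident-type macrophages, 13 of 14 were tested, 5 were called higher and 0 lower by DESeq2, and 7 were higher on 4 of 4 plates. Their median log2 fold change was 0.43. Over all genes, DESeq2 called 0.865% higher and 0.670% lower, and 5.45% were higher on 4 of 4 plates. Mrc1, the mannose receptor CD206, was at 1503, 2189.6, 2093 and 1348 CPM in members of plates 2 to 5 and 991, 1161, 1142 and 1074 in the other cells. The lowest member value, on plate 5, was above the highest value of the other cells (edgeR log2 fold change 0.79 (SE 0.08), DESeq2 adjusted p = 3.89e-06). Gas6, the vitamin K–dependent ligand of the TAM receptors, was at 601, 1054, 594 and 522 CPM in members of plates 2 to 5 and 437, 535, 313 and 374 in the other cells (log2 fold change 0.81 (SE 0.09), DESeq2 adjusted p = 8.76e-06). It was higher on each plate, although the member value of plate 5 was below that of the other cells of plate 3. Selenop, the secreted selenium carrier, was at 815, 1136, 1328 and 1399 CPM in members of plates 2 to 5 and 654, 656, 692 and 1056 in the other cells (DESeq2 adjusted p = 0.000425). Pf4, a chemokine of platelets and resident macrophages, had a log2 fold change of 0.99 (SE 0.27) and Cbr2, a carbonyl reductase, one of 1.55 (SE 0.33), both called by DESeq2 (adjusted p = 0.0150 and 3.83e-08). Without the deep well Cbr2 was at 0.92 (DESeq2 adjusted p = 5.23e-06) and Pf4 at 0.59 (DESeq2 adjusted p = 0.203). Lyve1 and Timd4, which define resident macrophages of several tissues, were at or below 0.268 and 0.121 CPM in members of each plate, and Folr2 and Cd163 had log2 fold changes of -0.21 and -0.30 with 0 calls.

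Of the 9 C1q macrophage genes reported, 3 were called higher and 0 lower by DESeq2, beside 0.865% and 0.670% of all genes. The list median was 0.48. The transcription factor Maf was at 239, 279, 382 and 251 CPM in members of plates 2 to 5 and 143, 179.6, 145 and 169 in the other cells, and the ranges did not overlap (log2 fold change 0.91 (SE 0.13), DESeq2 adjusted p = 1.86e-05). C1qb, a chain of complement C1q, was at 2023, 2661, 1920.2 and 2651 CPM in members of plates 2 to 5 and 1592, 1939, 1407 and 1741 in the other cells (DESeq2 adjusted p = 0.0168). C1qb and Maf were each higher on 4 of 4 plates. The third call, Tmem176b, was lower in members on plate 2 and is read with Tmem176a, since their genes overlap and strand was not counted. C1qa and Apoe, the lipid carrier, were not called, with log2 fold changes of 0.19 and -0.44.

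The Ms4a family is the family of the leading score gene, which was not part of its list. Of 13 further members, 9 were tested, with a median of 0.72. DESeq2 called 4 higher and 0 lower, beside 0.865% and 0.670% of all genes. On 4 of 4 plates 5 were higher, beside 5.45% of all genes. Ms4a6b was at 241, 220.4, 166 and 192 CPM in members of plates 2 to 5 and 74.2, 68.2, 71.1 and 70.9 in the other cells, and no member value came near the other cells (log2 fold change 1.50 (SE 0.15), DESeq2 adjusted p = 1.67e-12). It was found in 92.4% of members and 66.7% of the other cells. Ms4a6d was at 724, 1048, 561 and 739 CPM in members of plates 2 to 5 and 492, 469, 401 and 446 in the other cells, and Ms4a6c at 243, 254, 275 and 308 CPM in members of plates 2 to 5 and 165, 159, 164 and 166 in the other cells. Both were higher on each plate without overlap (DESeq2 adjusted p = 0.000209 and 0.00128). Ms4a4c was at 38.8, 34.2, 36.5 and 182 CPM in members of plates 2 to 5 and 28.1, 11.3, 35.9 and 51.1 in the other cells (DESeq2 adjusted p = 0.00698), with most of the gap on plates 3 and 5. The Ms4a genes lie side by side and are similar in sequence. Per the methods only uniquely placed fragments were counted, so fragments of near-identical stretches may be missing from their counts.

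**Figure D3:**
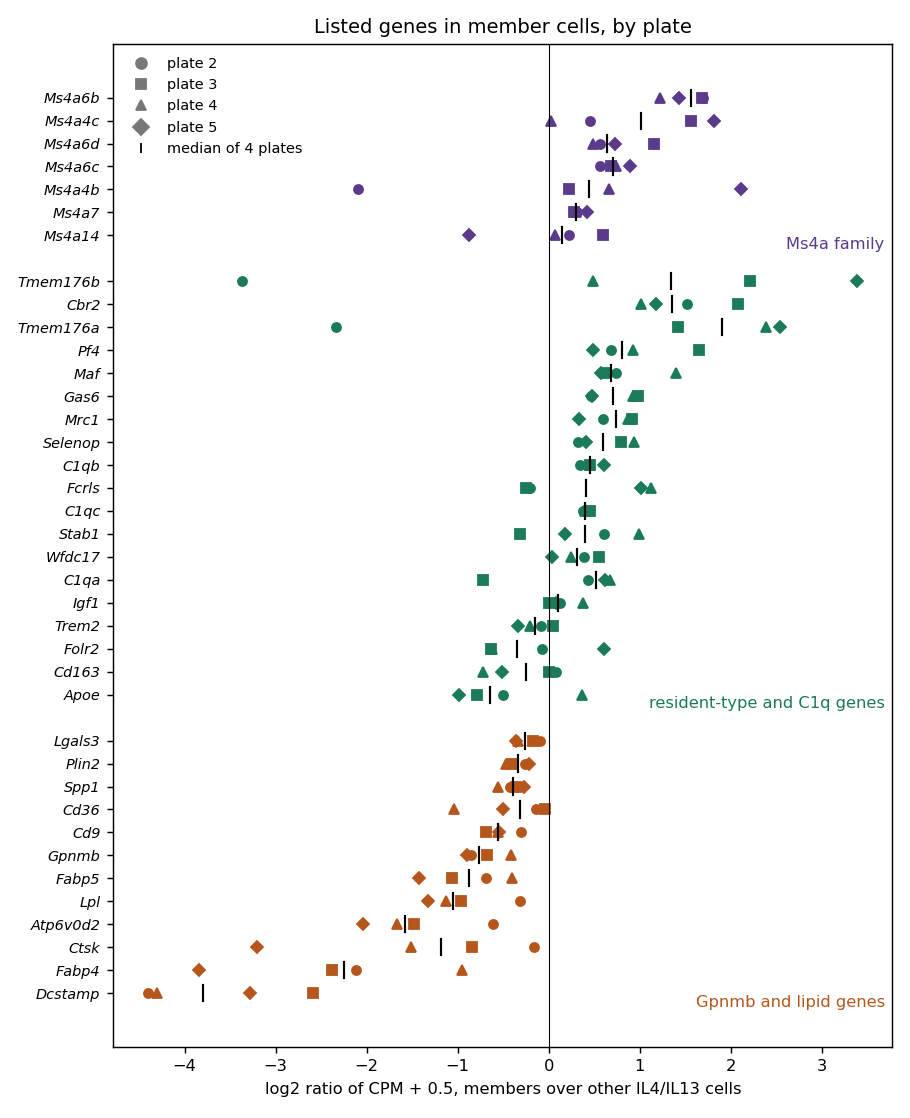
Log2 ratio of CPM + 0.5, members over other IL4/IL13 cells (x axis), for 38 listed genes. Each plate has 1 symbol, and a bar marks the median of 4 plates. The genes were kept by a floor of 5 CPM, which Dcstamp did not reach in members. The 12 Gpnmb and lipid genes (orange) lie left of 0 on each plate, most Ms4a (purple) and resident-type and C1q genes (green) lie right of it, while Apoe, Cd163, Folr2 and Trem2 have a median below 0.

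The Gpnmb and lipid genes differed the same way on each plate. All 12 were lower in members on 4 of 4 plates, with or without the deep well, beside 11% and 10.3% of all genes tested, and DESeq2 called 8 lower and 0 higher (10 and 0 without that well). Gpnmb, a glycoprotein of lipid-laden macrophages, was at 2489, 2999, 3509.7 and 2762 CPM in members of plates 2 to 5 and 4504, 4817, 4676 and 5138 in the other cells (log2 fold change -0.66 (SE 0.05), DESeq2 adjusted p = 0.000730). Lpl, the lipoprotein lipase, was at 2002, 1219, 1024 and 651 CPM in members of plates 2 to 5 and 2487, 2378, 2240.1 and 1631 in the other cells (DESeq2 adjusted p = 7.50e-06). For Gpnmb the values did not overlap, and for Lpl plate 2 members reached the range of the other cells. The fatty acid–binding protein Fabp4 was at 39.7, 31, 108 and 19.6 CPM in members of plates 2 to 5 and 174, 163, 209 and 288 in the other cells (log2 fold change -2.03 (SE 0.19), DESeq2 adjusted p = 5.50e-20). Atp6v0d2, a proton pump subunit of osteoclasts and macrophages, was at 353, 211, 204 and 149 CPM in members of plates 2 to 5 and 539, 589.7, 651 and 614 in the other cells (DESeq2 adjusted p = 4.83e-11). Dcstamp, needed for macrophage fusion, was at 0.0879, 0.279, 0.153 and 0.242 CPM in members of plates 2 to 5 and 11.9, 4.2, 12.4 and 6.73 in the other cells (DESeq2 adjusted p = 1.86e-09), found in 9.72% of members and 10.2% of the other cells. That share counts cells with any fragment, and at so low a level in members it does not show how many cells expressed Dcstamp. Spp1, Plin2, Lgals3 and Cd36 were lower on each plate by smaller amounts and were not called in the fit with all wells, with log2 fold changes of -0.41, -0.37, -0.25 and -0.42.

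M2 genes split between the classes. Of 23 listed, 22 were tested, with a median of -0.37. DESeq2 called 4 higher and 4 lower, beside 0.865% and 0.670% of all genes. The higher ones were Mrc1, the lectins Clec10a and Mgl2, and Retnla, which encodes RELMα. Clec10a was at 493, 388, 543 and 774 CPM in members of plates 2 to 5 and 240.4, 214, 278 and 269.7 in the other cells, without overlap (log2 fold change 1.06 (SE 0.12), DESeq2 adjusted p = 4.06e-09), and Mgl2 at 1069, 1243, 813 and 1012 CPM in members of plates 2 to 5 and 689, 766, 564 and 625 in the other cells (DESeq2 adjusted p = 0.000592). Retnla was at 106, 129.5, 475 and 901 CPM in members of plates 2 to 5 and 8.76, 153, 251 and 707 in the other cells, lower in members on plate 3 and higher on the others, and higher on 4 of 4 plates without the deep well (log2 fold change 0.54 (SE 0.11), DESeq2 adjusted p = 0.0325). Arg1, the arginase, had a log2 fold change of 0.16 (SE 0.42) with 0 calls. The lower ones were Mmp12, Atp6v0d2, the collagenase Mmp13 and Clec7a, the beta-glucan receptor Dectin-1, which was at 183, 110.3, 361 and 430.4 CPM in members of plates 2 to 5 and 276, 286, 526 and 609 in the other cells (DESeq2 adjusted p = 0.00175). Mmp12 was at 149.5, 70.5, 58.7 and 105 CPM in members of plates 2 to 5 and 744, 619, 753 and 525 in the other cells, the lowest value of the other cells being above the highest of the members (log2 fold change -2.93 (SE 0.12), DESeq2 adjusted p = 4.08e-70). Of 16 genes of the IL4/IL13 receptor and STAT6 pathway, 0 were called and the median was -0.03. Stat6 itself had a log2 fold change of -0.09 (SE 0.12) and Il4ra, the receptor chain, of 0.17 (SE 0.27). Of the 8 genes that the study lists as examples of its separate kinds of M2 gene, Mrc1 and Retnla were called higher and the sulfotransferase Chst11 lower.

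Genes were ranked by size of change among those with an unadjusted edgeR p under 0.05 and the same direction on 4 of 4 plates. They also had fragments in 25% of cells of the higher class. The 14 largest rises in members are named here. They were Tfrc, Cbr2, Ms4a6b, Fmnl2, Ahrr, Tppp3, Btd, St8sia1, Fgd2, Avl9, Fcgrt, Parvg, Nxpe5 and Nemp2, from 1.80 to 1.08 on the log2 scale. DESeq2 called 13 of the 14, not Nemp2 (adjusted p = 0.310), beside 0.865% of all genes called higher. It used the same sums that picked these genes, so these calls are no separate support. Tfrc, the transferrin receptor that takes up iron, was at 229.6, 1199, 573 and 554 CPM in members of plates 2 to 5 and 137, 149.7, 276 and 289 in the other cells. Plate 3 stands apart there with the deep well, and without that well the log2 fold change was 1.02 in place of 1.80. Fcgrt, the neonatal Fc receptor, was at 130.5, 234, 145 and 253 CPM in members of plates 2 to 5 and 56.7, 67.7, 100 and 121 in the other cells and went from 1.22 to 0.88 without that well. Fgd2, an exchange factor of the GTPase Cdc42, was at 39.6, 74.9, 96.7 and 116 CPM in members of plates 2 to 5 and 27.6, 23.4, 45 and 42.2 in the other cells. St8sia1, a sialyltransferase of ganglioside synthesis, was at 13.1, 12.4, 32.2 and 35.1 CPM in members of plates 2 to 5 and 8.42, 2.37, 11.6 and 10.8 in the other cells. Both were higher in members on each plate, by least on plate 2. Ahrr, the repressor of the aryl hydrocarbon receptor, and Parvg, an actin-binding adaptor of integrins, went from 1.48 to 0.40 and from 1.14 to 0.31 without the deep well. Fmnl2 went from 1.50 to 0.97, Btd from 1.41 to 0.91 and Avl9 from 1.24 to 0.70, each then without a call. On mean log2(CPM + 1) per cell, with all wells, limma called Ms4a6b, Fcgrt and Cbr2 higher, with changes of 2.80, 1.74 and 1.57. The others of the 14 were not called on that measure and ran from 1.30 in Tfrc to 0.28 in Ahrr.

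By the same rule 8 genes were picked as lower, Itgax, Rgcc, Mmp12, Slc7a11, Pcdh7, Fabp4, Phldb1 and Ets2, from -3.71 to -1.91. DESeq2, on the same sums that picked them, called all 8, beside 0.670% of all genes called lower. Without the deep well it called 7, and Phldb1 had an adjusted p of 0.0610. Itgax, the integrin CD11c, was at 1.05, 0.0931, 0.805 and 8.58 CPM in members of plates 2 to 5 and 13.2, 8.92, 25.2 and 32.2 in the other cells, so that no member value reached the lowest of the other cells (log2 fold change -3.71 (SE 0.62), DESeq2 adjusted p = 6.64e-09). It was found in 16.7% of members and 25.1% of the other cells, and so passed the 25% floor through the other cells alone. Pcdh7, a protocadherin, was at 24.4, 19.7, 14.5 and 21 CPM in members of plates 2 to 5 and 67.6, 61, 96.1 and 97 in the other cells, also without overlap. Slc7a11, the cystine and glutamate exchanger, was at 2.55, 1.12, 4.03 and 0.302 CPM in members of plates 2 to 5 and 8.99, 7.57, 9.89 and 10.8 in the other cells. Ets2, a transcription factor, was at 9.32, 3.35, 2.72 and 3.39 CPM in members of plates 2 to 5 and 21.4, 15.3, 15.1 and 9.57 in the other cells. These genes were low in members of both mice. On mean log2(CPM + 1) per cell, limma called Mmp12, Fabp4 and Pcdh7 lower, with changes of -1.69, -1.55 and -1.55. Itgax, Slc7a11, Phldb1, Rgcc and Ets2 were at -0.63, -0.63, -0.56, -0.45 and -0.31 on that measure, without a call.

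Other lists showed smaller or uneven differences, to be read beside 0.865% of all genes called higher and 0.670% called lower by DESeq2. Of 20 transcription factors, Maf was called higher and Bhlhe40 lower (log2 fold change -1.12 (SE 0.20), DESeq2 adjusted p = 0.000289). Of 12 interferon-induced genes, 4 were called higher, Ifit1, Ifit2, Ifit3 and Iigp1, but only Ifit3 was higher on 4 of 4 plates among these, and the list median was 0.50. Iigp1, an interferon-induced GTPase, was at 0.44, 51.2, 2.8 and 28.9 CPM in members of plates 2 to 5 and 2.58, 1.69, 0.382 and 2.07 in the other cells, highest in members on plates 3 and 5. Its log2 fold change was 3.68, and 2.60 without the deep well. Ifit3 and Iigp1 were called without that well too. Of the 4 monocyte chemokines, Ccl7 was called higher (log2 fold change 0.94 (SE 0.18), DESeq2 adjusted p = 1.46e-05). Of 20 inflammatory genes, 19 were tested, Ccl3 and Ccl4 were called higher, and Ccl5 and Acod1 lower, and without the deep well Ccl5 alone was called. Of 13 antigen presentation genes, the costimulatory receptor Cd40 was called higher with that well, at 27.8, 44, 53.3 and 51.1 CPM in members of plates 2 to 5 and 25, 22.3, 23.3 and 18 in the other cells (DESeq2 adjusted p = 0.0269, and 0.241 without it), and the class II genes H2-Aa and H2-Ab1 had log2 fold changes of -0.44 and -0.45 with 0 calls. Of 12 G2/M genes, Aurka and Cenpf were called lower, 4 were lower on 4 of 4 plates beside 11% of all genes, and the median was -0.60. Of the 10 stress genes Slc7a11 was called lower, and of the 12 S phase, 15 cholesterol synthesis and 7 macrophage identity genes 0 were called.

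Across single IL4/IL13 cells, the genes whose level was most like the score included several of those above. The measure was the Spearman correlation with the score within each plate, averaged over 4 plates, among 8448 genes with fragments in 25% of cells, and it is a description, since the cells of a plate share libraries and depth. The highest were Ms4a6b at 0.40, the membrane protein Serinc3 at 0.39, the secreted ribonuclease Rnase4 at 0.35, Gas6 at 0.35, Mrc1 at 0.35, the clathrin adaptor subunit Ap2m1 at 0.34, Clec10a at 0.33 and Cd28, a costimulatory receptor best known on T cells, at 0.32. Rnase4 was at 836, 1309, 1204 and 1127 CPM in members of plates 2 to 5 and 496, 518, 673 and 613 in the other cells, without overlap, and it shares its promoter and leading exons with Ang, so that the genes cannot be fully told apart. Cd28 was at 408, 583, 603 and 711 CPM in members of plates 2 to 5 and 289.6, 276, 364 and 379 in the other cells (DESeq2 adjusted p = 2.86e-06). The lowest were Anxa1 at -0.37, Atp6v0d2 at -0.36 and Itgb2 at -0.34. Each of these had the same sign on 4 of 4 plates.

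The rule did not use the IL4/IL13/TNF cells, so the top 20% of these by the same score, 144 of 718, were set against the other 574. They share mice and plates with the members but no cell. Their scores ran from 1.36 to 5.83 with a median of 1.98, below the lowest member score of 2.943 in all but 21 of the 144. They were also deeper than the cells they were set against, with a median of 496647 against 458805 fragments and 8245 against 7967 detected genes. The 10 genes picked by size here kept their direction with cells thinned to 200000 fragments and with cells matched on detected genes. With thinning, Gspt2 went from 2.10 to 0.92 and Ms4a6b from 1.88 to 2.37. The part of depth in the DESeq2 calls was not tested. edgeR called 0 of 21307 genes (0%), with 1704 (8%) at an unadjusted p under 0.05. DESeq2 called 216 higher and 193 lower, 1.29% and 1.15% of 16761, and limma 117 and 32, 0.549% and 0.15%. Of the 142 genes called higher in members, 43 were also called higher here, 30.3% of that list and 19.9% of the 216, and 1 was called lower. Of the 110 called lower in members, 30 were called lower here, 27.3% of that list and 15.5% of the 193, and 5 were called higher. Irrespective of a call, 76.1% of the higher genes and 73.6% of the lower genes had the same sign with TNF, beside 47.3% and 52.7% of all genes with that sign.

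Mrc1 was at 1008, 786, 1323 and 1096 CPM in high-score IL4/IL13/TNF cells of plates 2 to 5 and 449, 505, 602 and 536 in the others (log2 fold change 0.93 (SE 0.08), DESeq2 adjusted p = 5.91e-13). Cbr2 was at 151, 144, 169.8 and 112 CPM and 24.2, 44.2, 32.7 and 24 (log2 fold change 2.12 (SE 0.12), DESeq2 adjusted p = 2.81e-32). Ms4a6b was at 53.2, 69.3, 59.1 and 95.9 CPM and 13.9, 7.95, 40.4 and 21.9 (DESeq2 adjusted p = 1.66e-09). In these genes each plate was higher in the high-score cells, as in the members. Mmp12 was at 185, 433, 168 and 131 CPM and 1363, 1341, 1412 and 1470.1 (log2 fold change -2.76 (SE 0.34), DESeq2 adjusted p = 1.53e-41), and Itgax at 36.7, 28.5, 29 and 3.84 and 91.6, 97.2, 149 and 147. Both were lower on each plate, as in the members.

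By list, DESeq2 called 7 of 12 Gpnmb and lipid genes lower and 0 higher, 7 were lower on 4 of 4 plates beside 9.25% of all genes, and the median was -0.56, against -0.03 over all genes tested. It called 7 of 13 resident-type genes, 4 of 9 C1q genes and 4 of 8 Ms4a genes higher and 0 lower, with medians of 0.72, 0.85 and 1.02. Of all genes, it called 1.29% higher and 1.15% lower. The scavenger receptor Stab1 was among the resident-type calls with TNF (log2 fold change 1.24 (SE 0.11)) and was 0.38 in members without a call. The 4 monocyte chemokines Ccl2, Ccl7, Ccl8 and Ccl12 were all called higher, with a median of 1.59, and 4 of 4 were higher on each plate, beside 8.79% of all genes. Ccl12 was at 311, 546, 388 and 267 CPM and 93, 50.3, 81 and 70.6 and led the genes higher by size, at 2.29. G2/M genes went the opposite way from the members, with 9 of 12 called higher and a median of 1.03. That difference between treatments was not tested. M2 genes split again, with 3 called higher and 9 lower, and Retnla was among the lower ones with TNF, at 0.393, 0.382, 21.4 and 7.13 CPM and 14.8, 9.87, 42.7 and 9.56 (log2 fold change -2.63 (SE 1.15)).

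**Figure D4:**
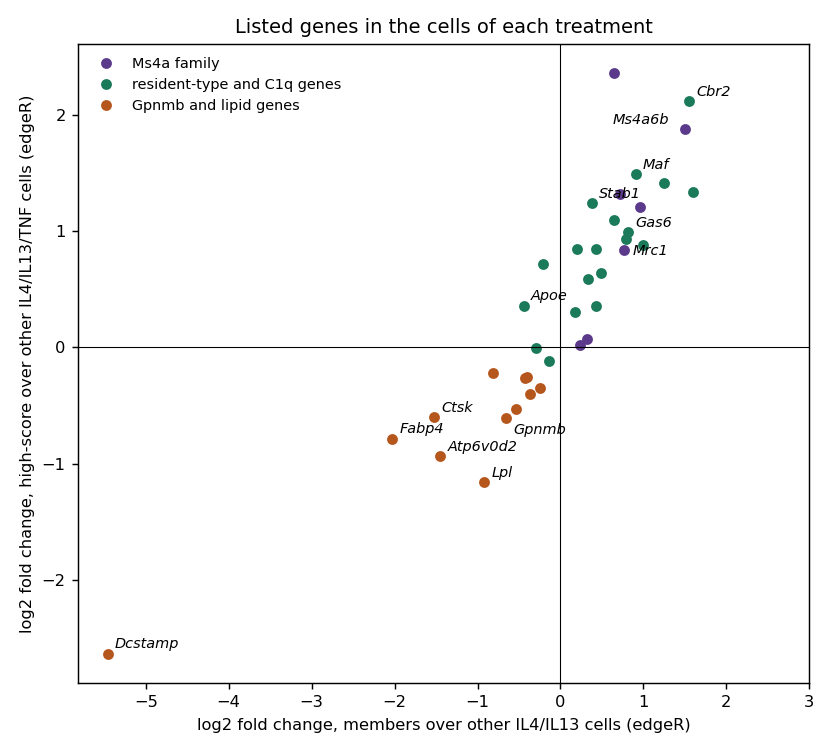
Log2 fold change from edgeR in members over other IL4/IL13 cells (x axis) and in high-score over other IL4/IL13/TNF cells (y axis), 1 point per listed gene (38 genes). The genes were kept by a floor of 5 CPM, which Dcstamp did not reach in members. The 12 Gpnmb and lipid genes (orange) lie below 0 on both axes and most Ms4a (purple) and resident-type and C1q genes (green) lie above it, with Apoe at -0.44 and 0.36.

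TNF was set against IL4/IL13 over all kept cells, 4 sums of 2 mice and 2 treatments, to read the score genes under both treatments. This comparison shares the IL4/IL13 cells with that of the members. Hpgd was at 1.03, 1.79, 5.5 and 5.29 CPM with TNF on plates 2 to 5 and 24.5, 31.4, 50.3 and 67 without, a log2 fold change of -3.57 (SE 0.75). Ms4a4a was at 18.3, 8.31, 28.6 and 34.2 CPM and 86.2, 88.5, 94.9 and 109, a log2 fold change of -2.01 (SE 0.44). The values with TNF lay below those without it on each plate and without overlap for both. Scn3a, Klhl33 and Ednrb had log2 fold changes of -2.99, -1.73 and -1.32, and Prrg1 of -0.27. edgeR called 0 of the 6 (adjusted p from 0.446 to 1), 4 had an unadjusted p under 0.05, and DESeq2 called 4, Hpgd (adjusted p = 1.59e-07), Ms4a4a (0.000152), Ednrb (0.00794) and Klhl33 (0.0123). The 6 genes were chosen with earlier results of these data known, so these calls are a description and no separate support. Over all genes, edgeR called 1 of 25102 (0.00398%) higher, Clec4e, and 0 lower, with 999 (3.98%) lower at an unadjusted p under 0.05, and DESeq2 called 370 of 22668 (1.63%) higher and 304 (1.34%) lower.

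Fewer cells passed the score of the lowest member when TNF was added. In mouse 1 the share was 6 of 363 cells (1.65%, 95% exact Clopper-Pearson interval 0.609% to 3.56%) against 55 of 362 (15.2%, 11.7% to 19.3%) without TNF. In mouse 2 it was 15 of 355 (4.23%, 2.38% to 6.87%) against 89 of 359 (24.8%, 20.4% to 29.6%). The mean was 2.94% ± 1.82 (SD, n = 2 mice) with TNF and 20% ± 6.79 without it, the latter near 20% by the rule. On plates 2 to 5 the shares with TNF were 1.12%, 2.16%, 3.43% and 5%, each below that of the same plate without TNF. The difference of -17.1 percentage points (SD 4.97 between mice) gave p = 0.333 in a two-sided exact permutation test over the 4 shares, the smallest p that 2 against 2 allow. The shares come in pairs, since each mouse gave both treatments, and the differences within the mice were -13.5 and -20.6 percentage points. Flipping the signs of these, a test added after seeing the data, gave p = 0.5 in a two-sided exact permutation test, the smallest that 2 pairs allow. With 2 mice neither test could give a smaller p, whatever the shares, so neither can decide whether the share differed with TNF. The limit was set on the IL4/IL13 cells, which fixes their share near 20%, so the difference is a description. The intervals cover counting error only.

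**Figure D5:**
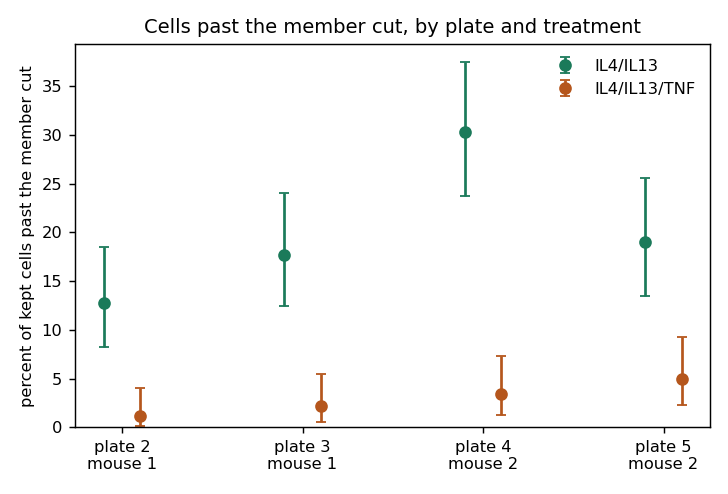
Percent of kept cells at or above the lowest member score (y axis) on each plate for IL4/IL13 (green) and IL4/IL13/TNF (orange), with 95% exact binomial intervals that cover counting error only. The IL4/IL13 points sit between 12.7% and 30.3% and the IL4/IL13/TNF points between 1.12% and 5%.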

How the data were processed

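Smart-seq2 libraries of single BMDMs were analysed. The values the authors deposited are raw counts, 1 whole number for each gene in each well. Per the methods and the header, gsnap placed fragments on mm10 and featureCounts 1.6.3 counted them over Ensembl 98 genes without strand, so overlapping and antisense genes cannot be told apart. PCR copies are counted. The table has 55421 genes, and 92 spike-in rows were left out. The labels gave no mouse for 4 of 1528 samples, which were unassigned, and 11 columns were not used. Wells held 4607 to 6122892 gene fragments.

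Counts were summed per mouse and class and fitted by the quasi-likelihood method of edgeR 4.0.16 (TMM, filterByExpr, Benjamini-Hochberg adjustment over all genes tested, threshold 0.05) in R 4.3.3. The SE given with an edgeR log2 fold change is the size of that change divided by the square root of its F statistic. Sums held 25780867 to 146879604 fragments. The mouse was a block in the comparisons of classes, since both classes come from the same plates and animals, and mouse numbers name animals and so pair the sums. The treatment comparison had no block. CPM per plate are from summed counts, and log2 ratios per plate add 0.5 CPM. Alternatives used DESeq2 1.42.0, limma 3.58.1, library size, no gene filter, sums per plate, other limits of the score, cells thinned to 200000 fragments, matched cells, other cell filters, scores without each gene and each mouse left out. The edgeR and DESeq2 steps were tested on simulated counts, in which DESeq2 called more unchanged genes than edgeR. Python 3.11.15 was used for scores, shares and plots. Promoters are from RefSeq, and 5 of 6 score genes matched.

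The members and the gene lists were chosen with earlier results of these data known. Genes named by size were the 14 highest and 8 lowest (6 and 4 with TNF) with the same direction on 4 of 4 plates and fragments in 25% of cells of the higher class, filled with unadjusted p under 0.05 because no gene passed the adjusted threshold. A listed gene is not reported here and was left out of the lists.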

Additional observations from a re-analysis of the deposited data

Results flagged for a closer look

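Ahrr, the repressor of the aryl hydrocarbon receptor, went opposite ways in the treatments. Its median log2 ratio over 4 plates was 1.22 in members over other IL4/IL13 cells and -0.90 in high-score over other IL4/IL13/TNF cells, with plates from 0.24 to 2.19 and from -0.98 to -0.36. It was picked out because each plate moved up in the members and down with TNF. The difference between treatments was not tested. Ahrr was at 10.6, 38, 37.8 and 43.5 CPM in members of plates 2 to 5 and 8.93, 7.93, 14.1 and 20.7 in the other cells, and at 12.6, 10.2, 12.3 and 15.9 in high-score and 16.3, 20.5, 23.3 and 30.4 in other IL4/IL13/TNF cells. Without the well of 6122892 fragments its edgeR log2 fold change in members was 0.40 and 3 of 4 plates were higher.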

How the results depend on the processing

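The edgeR counts of genes in member cells stayed at 0 under sums per plate, library size, other limits of the score, thinning, matched cells, other cell filters, scores without each gene and each mouse left out (0 to 0). DESeq2 gave 142 higher and 110 lower, limma on mean log values 38 and 12, and no filter on low counts 1 lower. Leaving out wells above 1500000 fragments, an alternative chosen after seeing the data, gave 115 higher and 115 lower in DESeq2. In high-score IL4/IL13/TNF cells, DESeq2 gave 216 and 193, limma 117 and 32, no filter 10 and 18, the score without Scn3a 3 lower, and DESeq2 without those wells 256 and 210. The cause of these differences between tools was not tested. The difference in the share past the limit was -8.18 percentage points at the top 10% and -24.2 at the top 30%, as fewer or more cells pass, and -20.6 and -13.5 with a mouse left out. Of the 6 score genes with TNF, DESeq2 called 4, and Prrg1 turned to 0.19 without IL4/IL13/TNF replicate 1 and to 0.77 without IL4/IL13 replicate 2, where the other treatment stands in for the spread of a lone sum, and ranged from -0.92 to 0.77 over the 4 sums left out in turn. Named genes kept their direction in the other alternatives run.

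The mouse numbers name animals, so the samples are paired. Without the replicate block, edgeR called 0 genes higher and 0 lower in members, with 1083 at an unadjusted p under 0.05, and 0 and 0 in high-score IL4/IL13/TNF cells, with 1224. With the replicate block, 0 of the 6 score genes passed in the treatment comparison. The block changed no call.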

Other observations

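Low-level transcripts of 3 genes followed the mice in the kept IL4/IL13 cells. Il1b had fragments in 73.5% and 54.0% of the cells of plates 4 and 5, with a median of 2 fragments where found, and in 1.10% and 0% of those of plates 2 and 3. Pdc, a phototransduction gene, had fragments in 75.7% and 54.1% of the cells of plates 2 and 3 and in 0% of those of plates 4 and 5. Arr3, a cone arrestin, had them in 86.2% and 59.1% on plates 2 and 3 and in 0.541% and 0% on plates 4 and 5. These genes were given no rank within plates.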
